A study of Drosophila melanogaster with 110 samples.

Results

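Su(Hw) binding was examined in 6 lists of ChIP-seq peaks, 3 from control cells and 3 from rump RNAi cells, out of 110 samples in the series, 76 of which have a peak list. All cells were Kc167, a Drosophila line of embryonic origin that is labelled hemocyte. Control cells were transfected with dsRNA against GFP and rump RNAi cells with dsRNA against rump, and chromatin was taken 4 days later from both. Every list holds the peaks of 1 immunoprecipitation against its input, and each condition has 3 biological replicates. The lists held 5225, 4195 and 5034 peaks in control cells and 5182, 3828 and 4092 after rump RNAi. Overlapping peaks of the 6 lists were joined into 5947 regions, which are the Su(Hw) sites described here. Of these, 3430 had a peak in all 6 lists, 3129 had exactly 1 peak in each of the 6, and 955 had a peak in 1 list only. The number of peaks did not separate the conditions (log2 difference -0.15, exact permutation test p = 0.4, where 0.1 is the smallest two-sided p that 3 against 3 can give).

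Su(Hw) is a zinc-finger protein that binds DNA directly and is best known for the insulator of the gypsy retrotransposon, where it carries the partners CP190 and Mod67.2, an isoform of Mod(mdg4) that the labels call MOD. A large set of sites elsewhere in the fly genome binds the same protein, some with both partners and some without. Rump is an RNA-binding protein of the hnRNP M type, and both Rump and the RNA-binding protein Shep are known as antagonists of gypsy insulator function. The comparison addresses whether Su(Hw) stays at its sites when Rump is depleted. A peak list gives the place, width, summit and fold enrichment of each site but not the signal around it, so strength is given below as the percentile of fold enrichment within a list, with 100 for the strongest peak. Neither the depletion of Rump nor the cell type can be checked from peak lists.

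The sequence at the summits is shown first. Sites in all 6 lists and the weaker sites absent from the rump RNAi lists held the Su(Hw) motif at different shares. These shares are given after the letters, and the part of strength in their difference was not tested. Sequence is shown from all large arms but one, from sites in introns or between genes. Of the 12 strongest such sites, 8 held a core word of the Su(Hw) motif within 100 bp of the summit, and these are the first set. Each is a stretch of 55 letters of the RefSeq Release 6 genome (dm6), read 5′ to 3′ on the strand that carries the word, with the matched word in capitals. They lie at 2L:3131800-3131854, 3R:8490004-8490058, 3L:22078354-22078408, X:4165942-4165996, X:4717099-4717153, 3R:23601751-23601805, 3L:18968750-18968804 and X:18366087-18366141, in the order printed, and carry the name of the gene with the nearest start.
CG15403: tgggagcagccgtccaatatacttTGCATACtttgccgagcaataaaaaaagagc
CG45263: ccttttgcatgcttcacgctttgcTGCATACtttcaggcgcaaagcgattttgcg
Sfp79B: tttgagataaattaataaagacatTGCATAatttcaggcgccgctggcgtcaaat
GlcAT-I: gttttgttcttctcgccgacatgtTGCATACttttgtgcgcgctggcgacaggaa
Proc-R: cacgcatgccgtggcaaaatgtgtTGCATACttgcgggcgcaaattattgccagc
tRNA:Leu-CAA-2-3: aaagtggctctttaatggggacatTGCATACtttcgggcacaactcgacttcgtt
lncRNA:CR45689: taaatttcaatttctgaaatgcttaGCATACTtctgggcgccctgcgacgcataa
CrebB: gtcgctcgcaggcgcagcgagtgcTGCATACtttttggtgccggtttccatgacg
Beyond the capitals most of these stretches go on with a run of T, and 4 of the 8 then hold GGCGC. The other 4 held none of the core words, and of these the strongest pair, near lncRNA:CR43298 (X:4004879-4004933) and CG15059 (X:18261710-18261764), are shown by the 55 letters centred on their summits.
lncRNA:CR43298: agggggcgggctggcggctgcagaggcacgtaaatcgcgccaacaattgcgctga
CG15059: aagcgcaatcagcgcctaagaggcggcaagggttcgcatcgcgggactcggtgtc

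The second set is from sites with a peak in 3 of 3 control lists and in 0 of 3 rump RNAi lists, again in introns or between genes. A core word was found near the summit at CG13077 (2L:19565416-19565470), lncRNA:CR45606 (X:18123193-18123247) and Rph (X:10758542-10758596) and in 0 of these 3 was it followed by GGCGC.
CG13077: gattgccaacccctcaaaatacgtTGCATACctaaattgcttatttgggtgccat
lncRNA:CR45606: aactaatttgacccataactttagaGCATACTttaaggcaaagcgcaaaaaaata
Rph: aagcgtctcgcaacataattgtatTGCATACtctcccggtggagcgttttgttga
No core word was found at tara (3R:16236470-16236524), lncRNA:CR46100 (3R:25539402-25539456) and Rh5 (2L:12005719-12005773), and the first of these is rich in C. These letters describe the windows shown and say nothing of whether Su(Hw) touched them directly.
tara: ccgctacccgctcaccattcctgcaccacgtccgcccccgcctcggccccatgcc
lncRNA:CR46100: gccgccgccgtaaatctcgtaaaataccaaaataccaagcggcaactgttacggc
Rh5: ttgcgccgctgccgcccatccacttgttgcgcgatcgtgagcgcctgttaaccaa

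The words were counted in all lists on both strands within 50 bp of the summit. TGCATAC lay there in 18.7, 22.5 and 20.6% of the control peaks and in 20.01, 24.2 and 24.3% of the rump RNAi peaks, against 1.30% of 1325548 windows of the same length tiled over the chromosome arms. The overlapping word GCATACT was found in 29.2, 34.5 and 31.9% and in 30.8, 38.1 and 38.1%, against 0.906% of windows. The share with TGCATAC was 2.24 points higher after rump RNAi, with groups that overlapped (exact permutation p = 0.3). With lists of equal length it was 0.44 points higher, and with 1 library left out between 1.28 and 3.65. At the 3430 regions of all 6 lists it was 26.1%, and 41.4% held GCATACT, which was also the most frequent word of 7 letters there (1420 regions). At the 54 lost sites each of the words was found in 2. These sites were weak (median of the mean control percentile 13.8), and in every list weak peaks held TGCATAC less often than strong ones. Whether the lost sites differ in the words from sites of like strength was not tested. Words known for another insulator protein and for Polycomb recruiters were counted the same way. The CTCF word AGGNGGCGC was at 0.845% of the regions of all 6 lists (0.229% of windows), the GAGA word GAGAGAG at 1.34% (1.24%), and GCCAT, the core of the Pho word, at 21.4% (19.7%).

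The share with the word was higher among strong than among weak peaks in every list. In the weakest decile of each control list TGCATAC was at 3.76, 6.90 and 5.37% of the peaks, and in the weakest decile of each rump RNAi list at 3.89, 12.3 and 14.4%. In the strongest decile the shares were 33.5, 36.9 and 37.7% in control cells and 38.5, 37.9 and 39.5% after rump RNAi. The rump RNAi lists 2 and 3, the shortest of the 6, had the highest shares at the weak end.

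**Figure D1:**
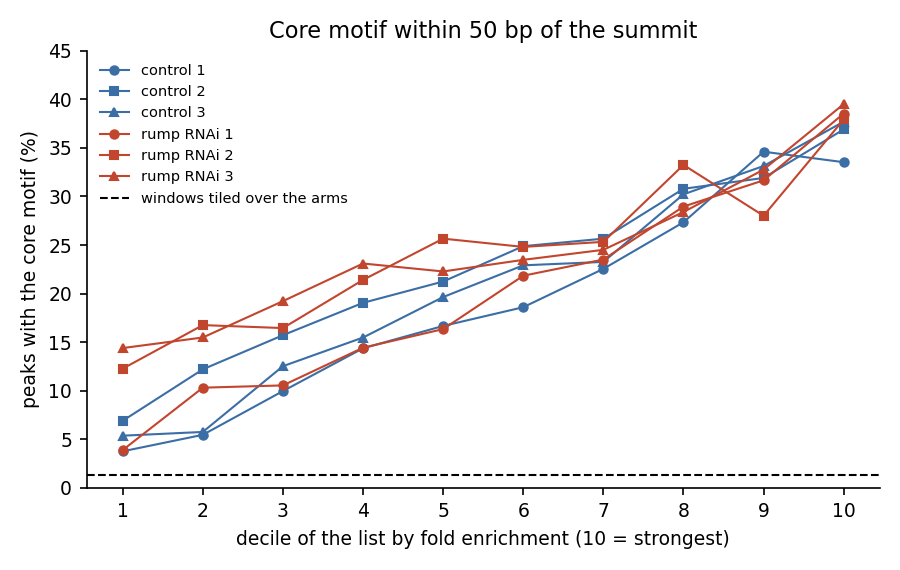
Share of peaks (%) with TGCATAC within 50 bp of the summit, by decile of each list ordered by fold enrichment (10 is the strongest), with 1 line per library and the share of tiled windows dashed. All 6 lines end higher than they start, from between 3.76 and 14.4% in the weakest decile to between 33.5 and 39.5% in the strongest.

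The letters around the word set occupied copies apart from the rest. Of 18763 copies of TGCATAC on the arms, 8.10% lay in regions of all 6 lists, which cover 2.25% of the arms. Of the 2873 copies that go on as TGCATACTT, 32.3% did. Between the 929 copies within 50 bp of a summit of such a region and the 16952 outside every region, the letters that follow differed. The letter T stood directly after the word in 85.3% of the occupied copies and in 25.4% of the others, and at the next place in 88.2 and 35.5%. Further on, G stood at the sixth and seventh letters after the word in 73.4 and 88.7% of the occupied copies against 18.5 and 21.2%, and C at the eighth in 63.7% against 21.7%. The letter directly before the word was T in 73.8 and 37.2%. These counts describe the printed pattern of a T run followed by GGC over the whole genome, and no test was made of them.

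The median peak was narrower in each rump RNAi list than in every control list. The median width of all peaks was 555, 567 and 552 bp in control cells (558 ± 7.94, SD, n = 3) and 489, 459 and 512 bp after rump RNAi (487 ± 26.6). The groups did not overlap, and the log2 difference was -0.20 (exact permutation p = 0.1, the smallest possible). The smallest peak a list holds moved with it, from 258, 264 and 247 bp in control cells to 228, 230 and 234 bp after rump RNAi, again without overlap. This minimum is set for each library when peaks are called.

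The difference was also there at the same sites. At the 3129 regions with 1 peak in each list, the median width was 668, 611 and 670 bp in control cells and 611, 475 and 545 bp after rump RNAi. The mean log2 width was 9.42, 9.29 and 9.41 against 9.26, 8.93 and 9.12, without overlap, a difference of -0.27 or 0.83-fold (exact permutation p = 0.1). Rump RNAi replicate 1 had the widest peaks of its group and replicate 2 the narrowest. With the smallest width of its list subtracted from each width, the log2 difference was -0.40 and the groups overlapped (exact permutation p = 0.2). The mean log2 width was lower after rump RNAi at 3030 of the 3129 regions, or 96.8%, and the median difference was 98.3 bp. All 3 control widths were above all 3 rump RNAi widths at 1274 regions, 40.7% of those compared, and the opposite held at 1, or 0.032%.

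The difference lay on both flanks of the summit. The median distance from the summit to its nearer edge was 263, 253 and 266 bp in control cells and 241, 205 and 228 bp after rump RNAi (36.0 bp shorter, p = 0.1, no overlap, exact permutation). To the farther edge it was 394, 349 and 389 bp against 359, 263 and 309 bp (67.0 bp shorter, exact permutation p = 0.2), and here the groups overlapped. Summits themselves stayed in place. The median distance between the control and the rump RNAi summit of a region was 10 bp, and it was over 100 bp at 23 regions.

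Weak and strong sites differed by a similar amount on the log scale. In the weakest decile of the shared regions by control rank the median of the mean widths was 423 bp in control cells and 355 bp after rump RNAi, and in the strongest decile 992 and 819 bp. The median log2 difference of the deciles lay between -0.22 and -0.27, while in base pairs it grew from -69.7 to -169. Among partner classes, the median log2 difference was -0.25 at the 1358 regions with both Mod67.2 and CP190, -0.23 at the 1153 with CP190 only and -0.24 at the 523 with neither. At the 95 with Mod67.2 only it was -0.37, with median widths of 501, 459 and 496 bp in control cells and 388, 368 and 334 bp after rump RNAi. It was -0.24 both with and without TGCATAC at the summit.

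**Figure D2:**
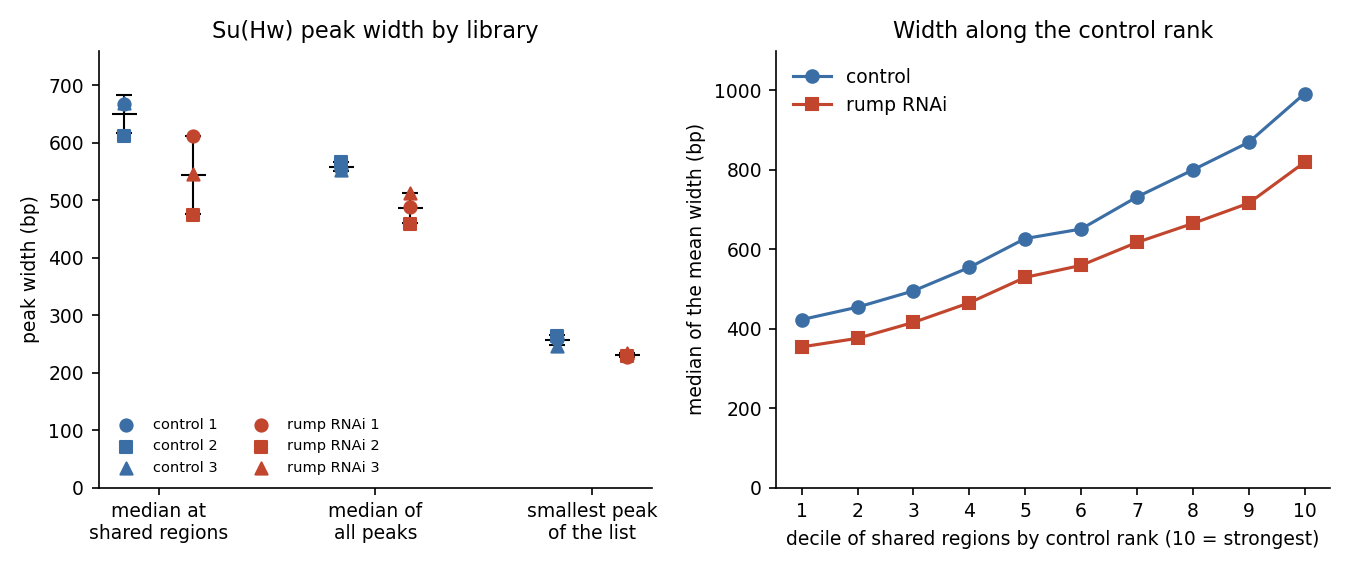
Left, peak width (bp) for each library as the median at the 3129 shared regions, the median of all peaks and the smallest peak, with bars for mean ± SD (n = 3). Right, median of the mean width (bp) by decile of the shared regions ordered by control rank (10 is the strongest), where control lies above rump RNAi in every decile, from 423 against 355 bp to 992 against 819 bp.

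For the other insulator proteins measured in this line the widths of the groups overlapped. At regions with 1 peak in each of their own 6 lists, the mean log2 width differed by -0.19 for Mod67.2 (1223 regions, exact permutation p = 0.5), by 0.06 for CP190 (6644 regions, p = 0.7) and by 0.07 for CTCF, the zinc-finger insulator protein conserved in vertebrates (1072 regions, p = 0.9). At those of them that coincide with the Su(Hw) regions of all 6 lists the differences were -0.18, 0.11 and 0.07. Whether the Su(Hw) difference is larger than these was not tested.

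Single sites were tested with limma on the log2 widths of the 3129 regions, with Benjamini-Hochberg adjustment over all of them. At an adjusted p under 0.05, 18 regions were narrower (0.575%) and 0 were wider (0%). With unadjusted p under 0.05 there were 944 narrower and 0 wider. With each library's log2 widths centred on its own median, limma called 13 regions narrower and 0 wider, 11 of them among the 18. With the widest peak of each region in place of single peaks the count was 52. It was 307 with the replicate number as a block, and libraries of the same number were only weakly alike in width. The number of calls depended on single libraries. When rump RNAi replicate 1, 2 or 3 was left out it was 348, 4 and 2, and when control replicate 1, 2 or 3 was left out it was 9, 15 and 10.

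Over the called sites, which were chosen by this same difference, the median log2 difference was -1.07, against -0.24 over all fitted regions. The clearest was in an intron of RhoGAP18B (X:19162060-19162844) with 775, 692 and 726 bp in control cells and 295, 230 and 274 bp after rump RNAi. The log2 difference was -1.46 ± 0.13 (SE, limma adjusted p = 0.00525), and every rump RNAi peak was far narrower than every control peak. An exon of sra (3R:16196001-16197043), a calcineurin regulator, had the largest difference of the 18, from 989, 878 and 992 bp to 327, 240 and 396 bp (-1.60 ± 0.18, limma adjusted p = 0.00759).

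At an exon of eRF3 (2L:12434741-12435542), the translation release factor, the widths were 742, 770 and 769 bp in control cells and 397, 329 and 318 bp after rump RNAi (-1.13, limma adjusted p = 0.00759). The same site also stood low in rank, at percentiles 44.4, 30.4 and 36.0 in control cells and 8.1, 10.3 and 10.1 after rump RNAi. A site near CG30413 (2R:23333665-23334382) went from 573, 641 and 603 bp to 299, 237 and 291 bp (-1.14). In an intron of Pxn, the hemocyte gene for peroxidasin, a site named after CG16986 (3L:2608424-2609483) went from 1060, 875 and 909 bp to 498, 419 and 425 bp (-1.08, limma adjusted p = 0.00974).

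Other called sites were at CG4297, vri (a clock repressor), chif, CG6426, scrt (a neuronal zinc-finger factor), asRNA:CR45121, IRSp53, CG3999, cher (filamin), htt (huntingtin), CG4293 and CG3626. Over the 18 the log2 difference ran from -1.60 to -0.67. Of these 18 regions, 6 lay in exons and 5 at starts, or 33.3 and 27.8%, against 12.4 and 6.94% of all fitted regions. CTCF was at 5 of them (27.8%, against 8.15%) and Crol, a zinc-finger recruiter of Polycomb group proteins, at 12 (66.7%, against 17.9%). By partner class 9 had both partners, 6 CP190 only, 1 Mod67.2 only and 2 neither, against 43.4, 36.8, 3.04 and 16.7% of all fitted regions. The 5 fitted regions at the other end of the test, led by CG31802 and Mal-B1, had log2 differences between 0.16 and 0.30 and limma adjusted p between 0.322 and 0.407.

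A few broad control peaks were 2 peaks after rump RNAi. This was so at 15 regions with 1 peak in each control list and at least 2 in each rump RNAi list, and the opposite was so at 1. CP190 was at 13 of the 15, or 86.7%, against 80.7% of the regions of all 6 lists. A site near CG13978 (3R:27451669-27453617) had peaks of 1870, 1882 and 1859 bp in control cells, and its strongest peak was 848, 645 and 778 bp wide after rump RNAi. Near TwdlD (3R:26642051-26644702), a gene for a cuticle protein, the widths were 2428, 2496 and 2644 bp against 1560, 1515 and 1593 bp. Its percentiles of 94.3, 92.8 and 88.8 in control cells and 91.6, 91.3 and 94.0 after rump RNAi overlapped. An intron of shep, the gene of the other antagonist, held such a site (3L:5203429-5204883) with 1 peak of 1199, 1349 and 1424 bp in control cells and 2 peaks in each rump RNAi list, the stronger of 587, 494 and 623 bp.

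The strongest sites lay at the top of every list, because they were chosen so. The 12 regions with the highest lowest percentile over the 6 lists were taken, and the percentile was at least 98.8 in every list for each of them. All 12 carried both Mod67.2 and CP190 in control cells, 0 carried CTCF and 8 held the shorter word TGCATA at least once, against 44.5, 8.25 and 62.9% of the regions of all 6 lists. The first was in an exon of CG5386 (3R:22340522-22342243), with a fold enrichment over input of 27.9, 35.5 and 32.1 in control cells and 32.6, 25.6 and 30.8 after rump RNAi. Its widths were 1667, 1630 and 1640 bp and 1402, 1377 and 1389 bp, which do not overlap (-0.24, limma adjusted p = 0.158).

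The widths of 9 of the 12 did not overlap between the conditions, all narrower after rump RNAi, and those of 3 did. Control widths were all above the rump RNAi widths at 49.5% of the fitted regions with both partners. Only 10 of the 12 were among the fitted regions, and the rest entered the 9 by their strongest peak. At the start of CG42534 they were 1233, 1000 and 1130 bp against 936, 841 and 781 bp. In the intron of toc that holds the CG15403 site printed above they were 803, 779 and 782 bp against 669, 595 and 688 bp. In an intron of Zasp52 (2R:15780677-15782061), which encodes a protein of the muscle Z-disc, they were 1296, 1339 and 1385 bp against 1122, 1143 and 1106 bp. In all of these the control peaks were the wider ones in each library. At lncRNA:CR43298, a site shown without a core word, the widths were 1380, 1413 and 1371 bp against 1125, 999 and 967 bp. CG15059, the other such site and 1 of 2 of the 12 that lie in an H3K27me3 domain, had 1103, 1276 and 1274 bp against 779, 817 and 890 bp (-0.55, limma adjusted p = 0.0658). This was the lowest adjusted p among the 10 of the 12 that could be fitted, so 0 of them were called.

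The broadest of the 12 had the smallest difference of those fitted. An intron of Ten-m, a teneurin of the cell surface, held a site (3L:22338362-22340915) with 10 copies of TGCATA and widths of 2508, 2329 and 2494 bp against 2454, 2286 and 2366 bp (-0.04, limma adjusted p = 0.739). The intronic site of CG6023 (X:18319664-18320360), at 697, 644 and 689 bp against 661, 635 and 669 bp, overlapped likewise. So did CG45263, at 1418, 1508 and 1492 bp against 1482, 991 and 1340 bp. The site in an intron of Mmp2, a matrix metalloproteinase, that is named after tRNA:iMet-CAT-2-1 also had 10 copies of TGCATA.

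**Figure D3:**
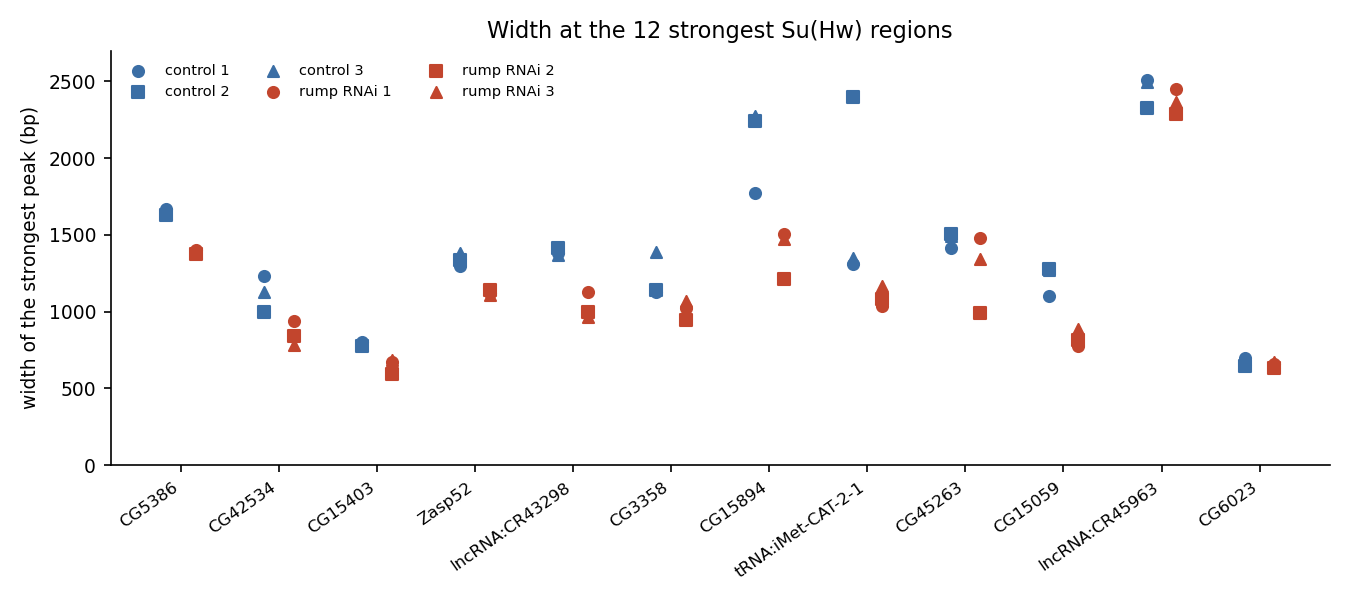
Width (bp) of the strongest peak of each of the 12 strongest Su(Hw) regions in every library, control in blue and rump RNAi in red. The rump RNAi points lie below all control points at 9 regions and among them at CG45263, lncRNA:CR45963 and CG6023.

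Ranks gave no called site. With limma on the normal scores of the within-list percentiles, 0 of the 3129 shared regions were lower (0%) and 0 were higher (0%) at an adjusted p under 0.05. At unadjusted p under 0.05 there were 154 lower and 12 higher, with a median shift of all regions of -0.12. The lists differ in length, and with ranks taken among the shared regions alone these numbers were 88 and 101, with 0 called. The lowest statistics were at the start of CG33080 (X:5717373-5718102), at percentiles 29.0, 13.8 and 18.1 in control cells and 1.8, 1.2 and 1.0 after rump RNAi, and upstream of shep (3L:5285165-5285889), at 44.2, 52.3 and 46.7 against 15.5, 8.4 and 6.5. Neither group pair overlaps, and the limma adjusted p was 0.368 for both.

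After these came eRF3, Ppa and lncRNA:CR44166. The highest statistics were at Gycalpha99B, a subunit of soluble guanylyl cyclase, at 96.3, 96.4 and 96.9 in control cells and 99.5, 99.3 and 99.1 after rump RNAi, and then at cic, Aatf, cu and CG7120. Their limma adjusted p was 0.867 throughout. The site of cic, a transcriptional repressor, stood at 81.6, 76.5 and 88.1 against 96.2, 94.0 and 93.9.

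Regions were placed in partner classes by the control peaks of Mod67.2 and CP190, counting a partner that overlapped in at least 2 of its 3 control lists. By the labels, Su(Hw) and Mod67.2 of the same control replicate number share an input, while the CP190 inputs are other samples. The background of a Mod67.2 call is thus not independent of that of the Su(Hw) call. What this adds to the classes was not tested. CP190 is a BTB-domain protein shared by several insulator complexes, and Mod67.2 is the isoform that joins it in the gypsy complex. There were 2043 regions with both, 1751 with CP190 only, 444 with Mod67.2 only and 1709 with neither. The share of a class with a peak in a list was then compared. Each class takes in regions found in any list, so that a list with more peaks has higher shares.

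Over all regions 86.1, 69.0 and 83.0% had a peak in the control lists and 84.1, 61.7 and 66.4% in the rump RNAi lists (79.4 ± 9.10 and 70.7 ± 11.8, SD, n = 3). The mean share was lower after rump RNAi in all 4 classes, with groups that overlapped. With both partners the shares were 87.3, 80.6 and 90.9% in control cells and 95.7, 78.1 and 77.2% after rump RNAi (86.3 ± 5.22 and 83.7 ± 10.5, SD, n = 3, exact permutation p = 0.8). With CP190 only they were 90.01, 80.2 and 89.7% against 91.6, 72.9 and 82.7% (exact permutation p = 0.7). With Mod67.2 only they were 88.5, 55.9 and 76.8% against 66.9, 39.4 and 30.4% (73.7 ± 16.5 and 45.6 ± 19.01, exact permutation p = 0.2). With neither they were 80.0, 47.0 and 68.2% against 66.9, 36.5 and 46.2% (65.1 ± 16.7 and 49.9 ± 15.6, exact permutation p = 0.2). The groups overlapped in all classes, and adjusted over the 4 classes these p were 0.8, 0.8, 0.4 and 0.4. Cut to the 3828 strongest peaks of each list, the differences were 1.12, -1.12, -12.7 and -2.81 points.

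The same classes kept different parts of their control calls. Of the regions called in at least 2 control lists, 92.6% of those with both partners and 93.0% of those with CP190 only were called in at least 2 rump RNAi lists. It was 54.0% of those with Mod67.2 only (176 of 326) and 73.3% of those with neither, against 85.7% of all regions (3963 of 4623). In the opposite direction, of the regions called in at least 2 rump RNAi lists, 99.4, 98.6, 97.2 and 96.2% were called in at least 2 control lists. CTCF marked 583 regions, with shares of 76.7, 61.1 and 82.2% in control cells and 89.4, 55.9 and 55.4% after rump RNAi (exact permutation p = 0.8). The difference of the means was -6.40 points, and it was -19.6 without rump RNAi replicate 1 and -12.7 without control replicate 2, while with control replicate 3 or with rump RNAi replicate 2 or 3 left out it was between -1.90 and -0.66.

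Strength moved with class. Among the regions that each control list called, the median percentile was 75.9, 74.1 and 74.3 with both partners and 54.0, 47.7 and 52.7 with CP190 only. It was 23.2, 16.1 and 18.2 with Mod67.2 only and 28.1, 28.6 and 30.3 with neither. Among control-called regions under percentile 25, the part kept was 45.6, 57.3, 36.0 and 39.8% in the same order, against 43.8% of all 1019. From percentile 25 to 50 it was 88.2, 96.9, 86.9 and 91.3%. From 50 upward 100% were kept in all 4 classes, 1220 regions up to percentile 75 and 1168 above it. Control-called regions absent after rump RNAi were thus all under percentile 50, and the part of strength in the class differences was not tested.

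Base composition moved with class as well. The median G+C of the 101 bp about the summit was 43.6, 44.6, 69.3 and 51.5% in the 4 classes, against 42.6% of tiled windows and 44.6% of the regions in all 6 lists. The regions with Mod67.2 only lay in exons for 85.1%, and 0.450% of them, 2 regions, held TGCATAC. Where G+C was 60% or more (1174 regions, 75.7% in exons), 83.2, 43.5 and 62.9% had a peak in control cells and 56.0, 28.5 and 25.1% after rump RNAi (63.2 ± 19.8 and 36.5 ± 16.9). In the bands below, the means were 86.9 and 81.7% under 40% G+C, 84.2 and 82.2% from 40 to 50%, and 77.3 and 70.3% from 50 to 60%. Within the highest band the mean share went from 83.6 to 61.6% with both partners, from 61.7 to 47.5% with CP190 only, from 73.9 to 45.8% with Mod67.2 only and from 50.96 to 22.6% with neither. The mean was lower after rump RNAi in each class of that band, and the part of G+C in the class differences was not tested.

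**Figure D4:**
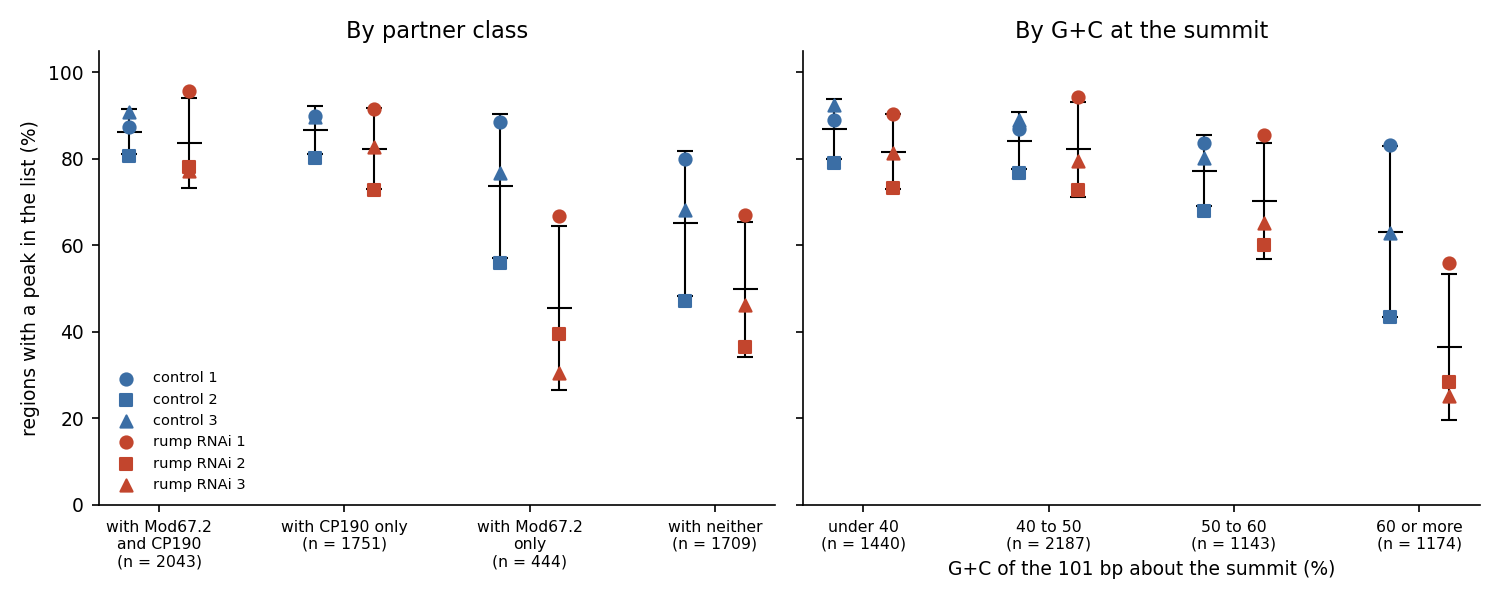
Share of Su(Hw) regions (%) with a peak in each library, by partner class on the left and by G+C of the 101 bp about the summit on the right, with bars for mean ± SD (n = 3). The groups overlap in each class and each band, and the lowest means after rump RNAi are 45.6% with Mod67.2 only and 36.5% at 60% G+C or more.

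Lost calls were few and weak. A peak in 3 of 3 control lists and in 0 of 3 rump RNAi lists was found at 54 of 5947 regions (0.908%), and the opposite at 0 (0%). With 2 or 3 control lists against 0, and the reverse, the counts were 231 and 6. Lists of unequal length favour the direction of the longer lists. Cut to equal length, 12 of 4577 regions were lost (0.262%) and 11 gained (0.24%). The mean control percentile of the 54 had a median of 13.8 and a highest value of 27.6. With control replicate 2 or 3 left out the lost regions numbered 194 and 84, and with rump RNAi replicate 1 left out 188.

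By class, 13 of the lost regions had both partners, 4 CP190 only, 16 Mod67.2 only and 21 neither, which is 0.636, 0.228, 3.60 and 1.23% of each class. They lay in exons in 38 cases, against 5 at starts, 6 in introns and 5 between genes, and 37 had G+C of 60% or more. Of all regions 22.6% lay in exons, and 19.8% had such a G+C. Of the regions found only in control list 1, 2 or 3, which were also weak, 59.6, 43.3 and 36.9% lay in exons. Of those found only in rump RNAi list 1 it was 18.8%. Whether the lost regions differ in place or G+C from regions of like strength was not tested. Crol was at 43 of the lost regions, Combgap at 43, Pho at 42, Ph at 22 and Su(z)12 at 16. Of the regions of all 6 lists these proteins were at 19.8, 28.2, 12.8, 7.11 and 4.66%. That set leaves out every lost region and is stronger than they are. The shares over all regions, or over weak regions in exons, were not computed. Whether the lost regions differ from such regions in these proteins was thus not tested. Crol, Combgap and Pho are DNA-binding recruiters of the Polycomb group, and Ph and Su(z)12 are subunits of its complexes. Of the lost regions 36 lay in exons and had a peak of Crol, Combgap or Pho, and the share of all regions with both traits was not computed. In all, 2 lay inside an H3K27me3 domain, where 6.29% of all regions lay.

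The highest ranked lost region was in an exon of Abl, a tyrosine kinase (3L:16646792-16647191), at percentiles 31.0, 23.1 and 28.9 in control cells, with widths of 400, 311 and 331 bp and Mod67.2, Crol, Combgap, Pho, Ph and Su(z)12 peaks. The next were C901, Synj (synaptojanin, for synaptic vesicle recycling), CG4666, tow, ATPsynB (a subunit of ATP synthase), HLH3B, SK (a calcium-activated potassium channel), Sos (a Ras activator) and CG15784, between percentiles 11.1 and 38.6. Of the 10 named, 8 lay in exons and 9 had a Crol peak. With lists of equal length the highest ranked lost regions were Lam, CG11666, Abl, CG13204 and U4-U6-60K, and the highest ranked gained ones Rhp, cu, Ptp99A, Dbx and Sox21a.

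**Figure D5:**
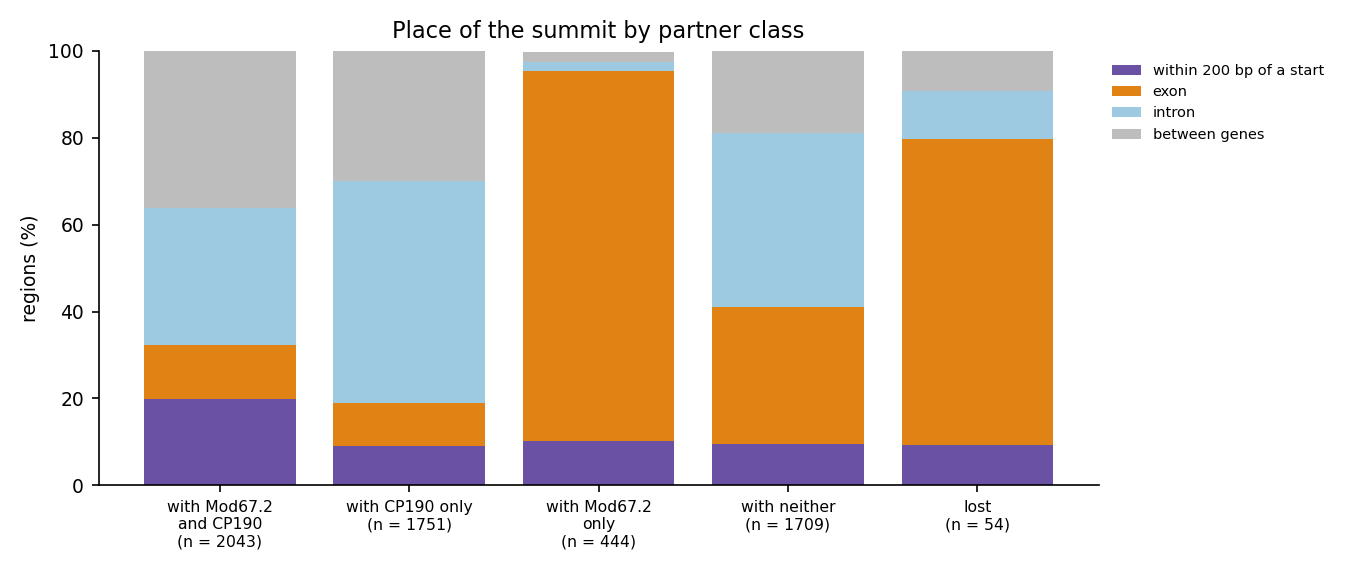
Share of Su(Hw) regions (%) by the place of the summit, for the 4 partner classes and the 54 lost regions. Exons take up 85.1% of the regions with Mod67.2 only and 38 of the 54 lost regions.

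A smaller share of the peaks lay in exons after rump RNAi. In control cells 22.7, 17.6 and 19.2% of the peaks had their summit in an exon and after rump RNAi 17.3, 15.7 and 13.8%, 19.8 ± 2.63 and 15.6 ± 1.79 (SD, n = 3), without overlap. This was 4.26 points lower (exact permutation p = 0.1, adjusted over 4 places 0.4). With lists of equal length the difference was -1.26 points (exact permutation p = 0.3), and without control replicate 1 it was -2.81 points. Introns held 39.7, 42.6 and 41.1% against 40.6, 44.9 and 46.3% (exact permutation p = 0.3), and 27.6, 30.9 and 29.1% against 29.4, 32.2 and 32.7% lay between genes (p = 0.2, exact permutation). Starts, within 200 bp of the first base of an annotated transcript, held 9.89, 8.84 and 10.5% against 12.7, 7.16 and 7.26% (exact permutation p = 0.8).

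H3K27me3 is the mark that Polycomb repressive complex 2 sets over silent developmental genes, and insulators are known at the edges of some such domains. The 256 domains of the control lists covered 6.62% of the arms. Su(Hw) summits lay inside them for 6.18, 5.84 and 6.18% of control peaks and 6.08, 5.54 and 5.18% of rump RNAi peaks (exact permutation p = 0.2). Within 5 kb of an edge, which takes up 3.62% of the arms, there were 4.63, 4.55 and 4.79% against 4.84, 4.41 and 4.13% (exact permutation p = 0.5). A region of all 6 lists was within 5 kb of an edge at 101 domains (39.5%), and at both edges of 24.

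The Homie insulator separates the repressed domain of eve, a pair-rule and neuronal homeobox gene, from the active gene TER94. Its Su(Hw) region (2R:9988347-9989290) lay 653 bp from a domain edge and carried both partners. It stood at percentiles 86.6, 73.1 and 79.6 in control cells and 97.9, 89.2 and 86.6 after rump RNAi, and the highest control list and the lowest rump RNAi list meet at 86.6. Its widths were 926, 690 and 772 bp against 943, 718 and 716 bp, a log2 difference of -0.01 ± 0.16 (SE, limma adjusted p = 0.969). It was thus not among the called sites.

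Genes were counted as having Su(Hw) where a region called in at least 2 lists of a condition overlapped the gene or the 2 kb before its start. This was so for 3299 of 17683 genes in control cells (18.7%) and for 2857 after rump RNAi (16.2%), with 2826 in both, 473 in control only and 31 in rump RNAi only. Of 23 neuronal and synaptic genes, 16 had a region in both conditions, among them nSyb, Syt1, brp and cac, whose products act in transmitter release, and the channels para, Sh and Shab. These genes are long, with a median of 27.7 kb against 1.71 kb for all genes, which gives more room for a region. Of 27 Polycomb target genes, 9 had a region in each condition and 8 in both, with eve in control cells only and Abd-B after rump RNAi only. Of 18 hemocyte genes, 7 had a region in control cells and 6 in both, with Col4a1, a collagen gene, in control cells only, while srp, ush, Hml, vkg and Pxn had one in both.

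Among 17 genes of insulator proteins only su(Hw) itself passed this count. Its exon region (3R:14307529-14308777) stood at percentiles 82.3, 89.7 and 99.3 in control cells and 98.5, 99.2 and 94.8 after rump RNAi, with widths of 1200, 1200 and 1242 bp against 977, 984 and 1163 bp. CTCF had a peak at its start in 1 list, rump RNAi replicate 1, and mod(mdg4) and rump had none. Of genes known for classical gypsy insertion alleles, ct, f, lz and Ubx had regions in both conditions, and y, ac and sc had none in this line. At ct, a homeobox gene, 4 of 6 regions were in all 6 lists, and at f, an actin-bundling protein of bristles, 2 of 3. At lz, a Runx factor of blood and eye cells, all 3 regions were exonic with Mod67.2 only, and none was in all 6 lists. The Ubx region, in an intron of this Hox gene, stood at percentiles 73.4, 92.0 and 93.4 in control cells and 92.3, 93.9 and 94.4 after rump RNAi, with TGCATAC at its summit and neither partner. Of the 8 regions over shep or before its start, 4 were in all 6 lists.

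The strongest sites of the other classes were chosen by the same value. Those with CP190 only were in an intron of robo3, an axon guidance receptor, at percentiles 98.8, 96.9 and 96.9 against 98.9, 97.9 and 98.4, in an intron of Lim1, a LIM homeobox gene, and near grsm. Those with Mod67.2 only were near CG33665, at 97.1, 93.0 and 93.3 against 90.8, 93.2 and 90.2, in CG32772 and at the start of Lim1. Those with neither were near CG32718, lncRNA:CR44260 and lncRNA:CR45599, between percentiles 84.2 and 94.2.

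The 6 lists were not called alike. The lowest −log10 q value was 2.28, 4.23 and 4.16 in control cells and 2.02, 4.04 and 4.84 after rump RNAi, so both lists of replicate 1 reached further down, and 408 of the 955 regions of a single list were of control replicate 1 and 336 of rump RNAi replicate 1. Without replicate 1 of both conditions, limma called 70 regions narrower and the lost and gained regions numbered 231 and 2. At the strong CG5386 site the −log10 q value was 251, 238 and 322 in control cells and 254, 132 and 171 after rump RNAi. At CG15403 it was 203, 197 and 290 against 222, 124 and 162. Rump RNAi lists 2 and 3 also held the fewest peaks and the narrowest at shared regions. The part of this in the widths and lost calls was not tested.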

How the data were processed

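Su(Hw) ChIP-seq was analysed from 6 peak lists of Kc167 cells, 3 per condition as GEO's labels give them. Per the submitters' processing notes, reads were trimmed with Trim Galore 0.6.7, aligned to dm6 with Bowtie2 2.5.3, handled with SAMtools 1.12 and Picard, and peaks were called with MACS2 2.2.7.1, replicate by replicate, with the input as background. The deposited lists give the fold enrichment over input at the summit, a ratio, and the authors' −log10 q value, and these were used as deposited. Fold enrichment was compared between lists only as a percentile within a list, since its scale depends on depth. The raw values printed at CG5386 are not meant as a comparison of the conditions. Peak lists hold no read counts, so the depth is unknown and no counting interval was given.

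Peaks overlapping by 1 bp or more were joined into regions. Single values were compared with two-sided exact permutation tests over libraries, and widths and normal-scored percentiles of regions with 1 peak in each list with limma 3.58.1 (R 4.3.3), Benjamini-Hochberg adjustment and a threshold of 0.05. Scripts were tested on simulated data. Summits were assigned to transcript starts (within 200 bp), exons, introns or the space between genes. The Ensembl gene annotation of the same assembly was used, without transposable elements. Sequences were read from the RefSeq Release 6 genome, with none shown from arm 2R. H3K27me3 domains were peaks of both control lists joined over gaps of up to 1 kb and at least 2 kb long.

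Regions carry the name of the gene with the nearest transcript start. Named were the 12 strongest, the 10 highest ranked lost regions (5 with lists of equal length), the 5 highest and lowest limma statistics, the 3 strongest of each class, all regions at fixed loci and the regions called narrower. The regions split after rump RNAi and the full list of those called narrower were added after their values were seen. A region among those called narrower is not reported here by name. The members and gene lists were chosen with earlier results of these data known. Alternatives were the replicate block, lists of equal length, a common threshold, other joins and windows, other words and leaving out each library. The labels call the replicates biological but do not say whether they were separate cultures, so p-values measure the spread between these samples.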

Additional observations from a re-analysis of the deposited data

How the results depend on the processing

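Of 252 values computed for 24 results under the alternatives, 225 were counted as the same. This meant a direction not reversed or, for counts, a value close to the main count. Counts of 0 that stayed at 0 are among the 225. So are the replicate-block values of the permutation results, which repeat the main difference by construction. The differences in the number of peaks and in the share at starts with lists of equal length were 0 and are also among the 225. Another 19 were counts that moved further, and 8 values changed direction. The permutation p cannot go below 0.1 with 3 against 3, so those results could not cross 0.05 and only their direction was compared. The number of regions called narrower was 307 with the replicate block, 52 with the widest peak of each region, 70 without replicate 1 of both conditions and 2 to 348 when 1 library was left out. Libraries of the same replicate number were at most weakly alike (correlations of their deviations 0.05, 0.11 and 0.05 for width and 0.07, 0.10 and 0.00 for percentile). In width every library correlated best with its own number, and whether the replicates were paired was not tested. Lost regions numbered 12 with lists of equal length, 231 without replicate 1 of both conditions and 67 to 194 with 1 library left out, and gained regions 11, 2 and 0 to 6, and 16 when regions were joined by summits within 150 bp. The class differences changed sign for both partners (1.12 points with lists of equal length, -9.12 to 0.65 with 1 library left out) and for CP190 only (-9.35 to 0.49). Likewise the share at starts went from -2.55 to 0.21 points with 1 library left out, and with lists of equal length the CTCF difference was 2.42 and that near a domain edge 0.10. The cause of these was not tested. The number of reads behind each list is unknown, so weak sites absent from a list cannot be told apart from sites below its threshold.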

Other observations

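Su(Hw) regions of all 6 lists were spread over the arms at 24.4 per Mb on 2L, 23.8 on 2R, 23.5 on 3L, 27.4 on 3R, 30.1 on X and 4.45 on the small chromosome 4. The median distance between neighbouring summits was 18267 bp, and 193 neighbours, or 5.64%, were less than 2 kb apart. The densest stretch held 9 summits within 20 kb, at 3L:22315410-22333100 near CG32450, next to the broad Ten-m site. Of the 54 lost regions 21 were on X, which is 1.54% of the X regions, against 0.602 to 0.836% on the other large arms.

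An exon of Cp190, the gene of the partner protein, had a peak in 2 lists only. It was 3538 bp wide at percentile 62.5 in control replicate 3, and in rump RNAi replicate 2 it was in 3 pieces, the strongest 959 bp wide at percentile 29.3. The regions found in a single list were weak, at a median percentile of 10.1 in control replicate 1 and 11.2 in rump RNAi replicate 1. They were in exons for 59.6% of the former and 18.8% of the latter, and at starts for 15.0 and 37.5%.

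Copies of TGCATA were as dense in the 50 strongest regions, at 1.22 per kb, as in all regions of the 6 lists, at 1.26 per kb. In the lost regions they stood at 0.42 per kb, and in the regions called in 1 list only at 0.52 per kb.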
